A study of Arabidopsis thaliana with 48 samples.

Results

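Abscisic acid (ABA) changes gene expression in guard cells, the cell pairs that open and close stomata, and in the whole leaf, and the data described here ask for which genes that change differed between these 2 kinds of sample in plants without a complete heterotrimeric G protein. The 36 arrays used were all those of 3 Arabidopsis thaliana mutants among 48 arrays in the series. They were taken by genotype label, with earlier results of these data known. The mutants, all in the Columbia background, lacked the G protein beta subunit (agb1, allele agb1-2), the alpha subunit (gpa1, allele gpa1-4) or both (agb1 gpa1, alleles agb1-2 and gpa1-4). Each gave 4 groups of 3 arrays, namely guard cells with ABA, guard cells with the solvent ethanol (EtOH), leaves with ABA and leaves with EtOH. ABA was given at 50 µM for 3 h to plants of 5 weeks. Plants were pooled for every array: guard cells were isolated from 300 leaves (60 to 70 plants), and each leaf sample held 10 leaves (3 to 4 plants). It is not clear from the labels whether ABA was given before or after guard cells were isolated. Each single mutant is represented by 1 allele, and the 12 wild type (WT) arrays entered only the comparison with WT at the end.

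ABA is the hormone of water deficit. It binds soluble receptors that inhibit protein phosphatases, which frees protein kinases to act on ion channels in the guard cell membrane, closing the stoma, and on transcription factors that switch on protective genes. Late embryogenesis abundant (LEA) proteins and cold-regulated proteins are among the products of that transcriptional arm. In Arabidopsis the G protein alpha and beta subunits, GPA1 and AGB1, take part in ABA signalling in guard cells. The genes of the ABA receptors, of the inhibited phosphatases and of the kinases they control, and GPA1 and AGB1 themselves, were not analysed here.

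For every probe set the guard cell response (ABA minus EtOH in guard cells), the leaf response (ABA minus EtOH in leaves) and the difference between them, guard cell response minus leaf response, were averaged over the 3 mutants on the log2 scale, where 1 is a 2-fold change. A positive difference can be a larger rise or a smaller fall in guard cells, so both responses are given with it. A value was called at a Benjamini-Hochberg adjusted p under 0.05 from limma over all 22746 probe sets that were not controls. Levels on the arrays are the deposited log2 values, whose lowest over all arrays was 2.42 and highest 14.50.

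The labels of the 2 kinds of sample were checked on marker genes. Here and for all lists, a gene counts as measured where the annotation given ties a probe set to it alone, so a gene not counted may still be on the array. Lists of gene families were matched by gene name, so members without a family name in the tables used are not counted either. Of 20 stomatal markers 5 were measured, and their summed linear level ran from 8144 to 16553 in guard cells with ABA, from 14851 to 21649 in guard cells with EtOH, from 540.7 to 1353 in leaves with ABA and from 715.7 to 1929 in leaves with EtOH. The lowest guard cell array thus lay above the highest leaf array. Of 17 mesophyll markers 4 were measured, and their sum was 2809 to 5855, 5774 to 6827, 7027 to 14021 and 12794 to 21583 in the same order. Of these 4, 3 are Calvin cycle genes (PRK, RCA and SBPASE), which guard cells also express, and carry-over of mesophyll was not tested. The 1 measured vascular marker, SWEET11, reached a linear level of at most 92.2 in guard cells and at least 439.6 in leaves. None of the 13 epidermis markers was matched to a probe set in that annotation. The log2 difference between the 3′ and 5′ probe sets of the GAPDH control, a sign of RNA integrity, ran from 0.04 to 0.42 in guard cells with ABA, from -0.02 to 0.32 in guard cells with EtOH, from 0.66 to 1.29 in leaves with ABA and from 0.22 to 1.45 in leaves with EtOH. The same value of the actin control was 2.83 to 3.63 in guard cells with ABA and 3.64 to 3.91 in guard cells with EtOH, without overlap, and 2.90 to 3.51 in leaves with ABA and 3.15 to 3.77 in leaves with EtOH. The part of either in the results was not tested. The median SD within a group was 0.15 to 0.20 in guard cells and 0.15 to 0.23 in leaves.

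The ABA response differed between guard cells and leaves for many genes, in both directions. The difference was called at 5503 probe sets (24.2% of those tested), of which 2751 (12.1%) were higher in guard cells and 2752 (12.1%) lower. With each array centred on its median the split was 2376 higher and 3039 lower. At 1062 of the higher and 1054 of the lower ones it was at least 1 on the log2 scale. In probe sets called higher, the median response was 0.34 in guard cells and -0.37 in leaves. In those called lower it was -0.42 in guard cells and 0.31 in leaves. The median difference over all probe sets was 0.02.

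**Figure D1:**
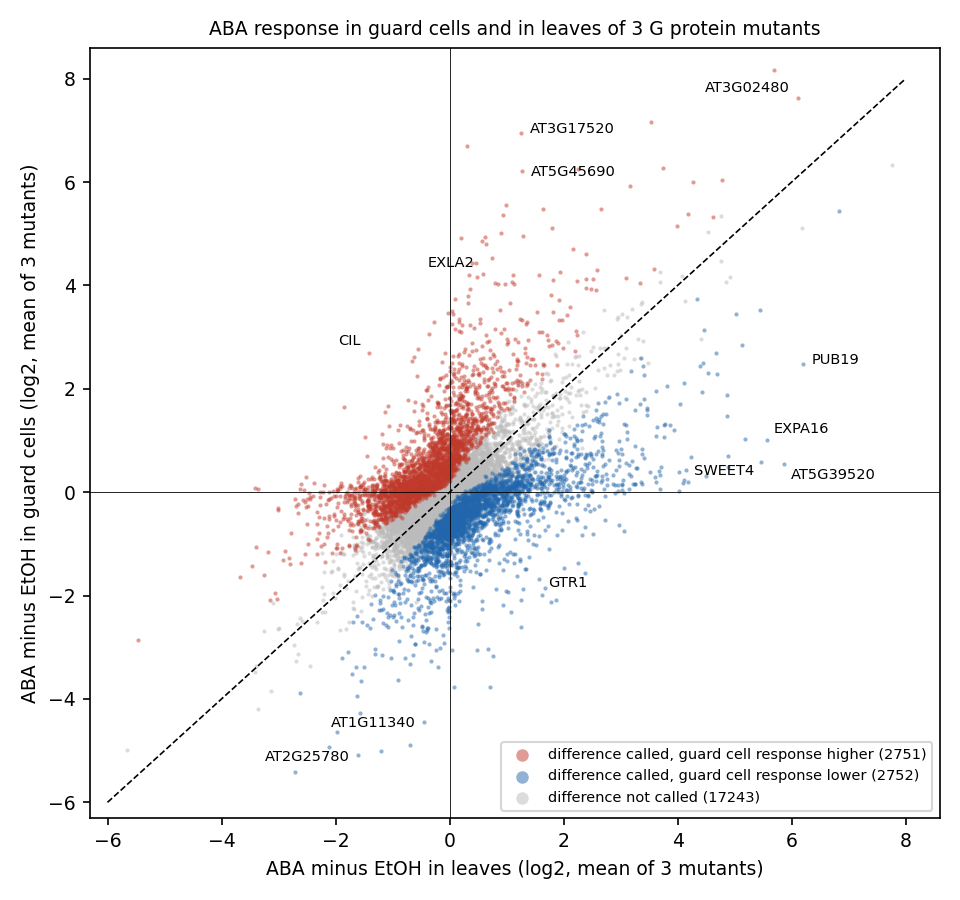
Each point is 1 of 22746 probe sets, with its ABA response in leaves on the x axis and in guard cells on the y axis (log2, mean of 3 mutants); the dashed line marks equal responses. Red points (2751) had a guard cell response called higher than the leaf response, blue points (2752) one called lower, and grey points no call; red genes such as AT3G17520 rose mainly in guard cells, and blue genes such as EXPA16 and SWEET4 mainly in leaves.

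The guard cell response itself was called at 7782 probe sets (34.2%), 3265 raised (14.4%) and 4517 lowered (19.9%), and the leaf response at 7716 (33.9%), 3124 raised (13.7%) and 4592 lowered (20.2%). With each array centred on its median, which moved the median leaf response to 0.10, the leaf calls split into 4540 raised and 3542 lowered. The 2 responses come from separate arrays, and their correlation across probe sets was 0.52 (Pearson) or 0.47 (Spearman, over 22746 probe sets that are not independent). Of the probe sets called in both, 1366 were raised in both, 2143 lowered in both, and 439 moved in opposite directions, 188 raised in guard cells and lowered in leaves and 251 the reverse. Those called in the same direction made up 45.1% of the guard cell calls and 45.5% of the leaf calls.

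Among genes represented by 1 probe set each, 2952 had a called difference, and 2942 of them had the same sign in all 3 mutants. Most moved in 1 kind of sample only by the test. ABA raised 503 of them in guard cells and lowered 596 there with no call in leaves, and it raised 470 in leaves and lowered 589 there with no call in guard cells. Another 266 were raised in both and 203 lowered in both, by unequal amounts. Opposite calls were seen for 104 genes raised in guard cells and lowered in leaves, and for 138 genes lowered in guard cells and raised in leaves. The remaining 83 were called in neither response. A missing call in 1 kind of sample does not show that the gene did not respond there.

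Large positive differences belonged to genes that ABA raised in guard cells far more than in leaves. AT3G17520 lay at 9.48 to 11.98 (median 11.14) in guard cells with ABA and at 3.50 to 5.52 (median 3.70) with EtOH, against at 3.63 to 6.19 (median 4.67) in leaves with ABA and at 3.35 to 3.71 (median 3.51) with EtOH. Guard cells with ABA stood clear of all other arrays, while the leaf groups overlapped. Its response was 6.94 in guard cells and 1.25 in leaves, a difference of 5.69 (SE 0.43, adjusted p = 5.60e-11). AT5G45690 differed by 4.95 and AT3G15670, whose leaf response of 0.20 was not called, by 4.71. AT4G36600 (3.97) and AT5G07330 (3.56) were likewise raised in guard cells with no call in leaves. The tables used give these loci no name.

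At the other end stood genes that ABA raised in leaves and hardly in guard cells. AT5G39520 lay at 3.64 to 4.66 (median 4.08) in guard cells with ABA and at 3.14 to 3.96 (median 3.44) with EtOH, against at 8.46 to 10.99 (median 10.30) in leaves with ABA and at 3.69 to 4.68 (median 4.30) with EtOH. The 9 leaf arrays with ABA were above every other array, and the guard cell groups overlapped. The difference was -5.31 (SE 0.33, adjusted p = 1.78e-12). AT1G09500 (-4.89), AT4G23670 (-4.17) and AT3G14280 (-3.99) showed the same form, with leaf responses of 5.46, 4.49 and 4.02.

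Other genes fell in 1 kind of sample with no call in the other. AT2G45120 lay at 3.63 to 4.00 (median 3.81) in guard cells with ABA and at 6.58 to 7.57 (median 6.86) with EtOH, against at 3.48 to 3.93 (median 3.73) in leaves with ABA and at 3.41 to 3.83 (median 3.72) with EtOH. With ABA the guard cell arrays came down to the leaf range, in which ABA and EtOH overlapped. That range is at the low end of the scale, so a fall in leaves could hardly have been measured. The difference was -3.09 (SE 0.11, adjusted p = 4.68e-18). AT1G11700 (-3.53), AT1G60630 (-2.82) and AT4G24140 (-2.81) also fell in guard cells with no call in leaves. In leaves AT1G15410 fell by 2.60 and AT5G62280 by 3.01 on the log2 scale, with guard cell responses of 0.16 and -0.31 that were not called. Both had lower levels in guard cells than in leaves with EtOH on every array. AT1G11340, AT2G25780, AT5G44680 and AT3G52870 fell in both and further in guard cells, where their responses were -4.44, -5.09, -4.92 and -3.64. The leaf fall of AT1G11340 (-0.44) was not called with arrays centred on their medians.

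Opposite responses were led by CIL. It lay at 5.12 to 7.28 (median 6.09) in guard cells with ABA and at 3.37 to 3.69 (median 3.46) with EtOH, against at 3.41 to 3.66 (median 3.60) in leaves with ABA and at 4.59 to 5.33 (median 4.98) with EtOH. No guard cell array with ABA overlapped one with EtOH, and in leaves the groups were equally separate in the other direction. The response was 2.70 in guard cells and -1.42 in leaves, a difference of 4.11 (SE 0.28, adjusted p = 9.74e-12). AT1G75800, AT1G18460 and AT2G37980 also rose in guard cells and fell in leaves, with differences of 3.33, 3.24 and 2.81.

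GTR1, a transporter of glucosinolates, the defence compounds of the cabbage family, moved the opposite way. Its level was 5.22 to 8.78 (median 7.27) in guard cells with ABA and at 8.42 to 9.76 (median 8.90) with EtOH, against at 8.62 to 10.36 (median 9.72) in leaves with ABA and at 7.09 to 9.17 (median 8.28) with EtOH. The ABA and EtOH groups overlapped in both kinds of sample, yet the mean fell in guard cells (-1.68) and rose in leaves (1.57), and the difference was -3.26 (SE 0.42, adjusted p = 1.03e-06). AT2G43550, AT2G43530 and AT1G10585 behaved alike by their calls, with differences of -3.90, -3.63 and -3.51.

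**Figure D2:**
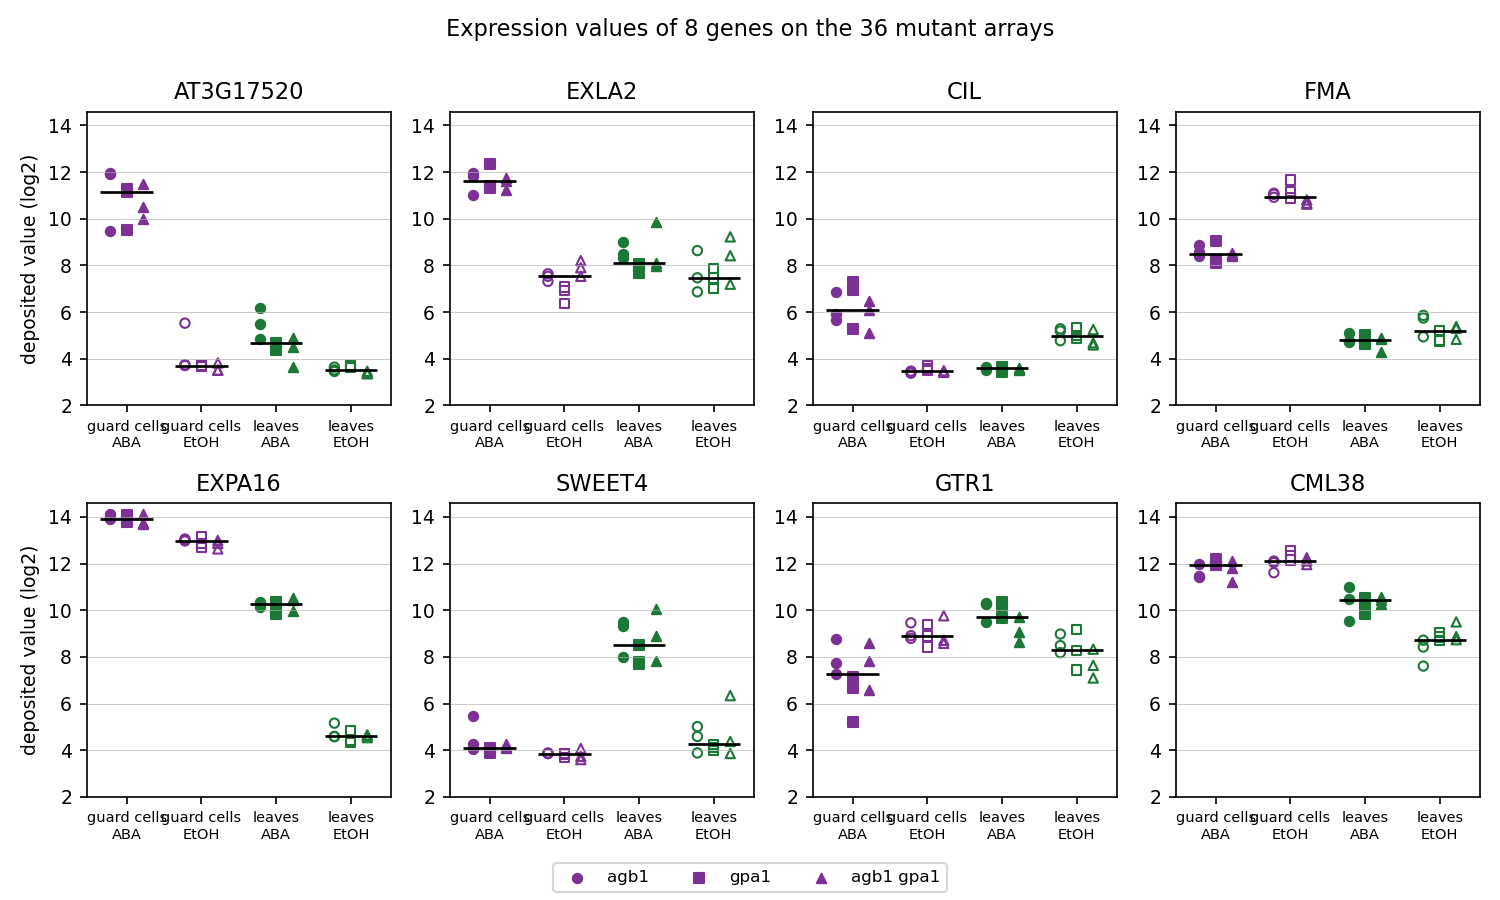
Deposited log2 values of 8 genes on the 36 mutant arrays; filled symbols are ABA and open ones EtOH, purple is guard cells and green leaves, symbol shape gives the mutant, and bars are medians of 9 arrays. EXLA2 and AT3G17520 are high in guard cells with ABA only, SWEET4 in leaves with ABA only, FMA falls with ABA in guard cells, and CIL changes in opposite directions.

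Of the classical ABA-induced genes, those whose products protect cells in drought and cold, 8 of 29 listed were measured. ABA raised 7 of them in guard cells and all 8 in leaves, with medians of 1.96 and 2.27, against 0.01 and -0.000359 over all probe sets. Over all probe sets ABA raised 14.4% in guard cells and 13.7% in leaves. The difference was called higher for 3 and lower for 1, against 12.1% of all probe sets in each direction. Its median was 0.05, against 0.02 over all probe sets. COR15A, a cold-regulated chloroplast protein, lay at 12.53 to 13.47 (median 13.06) in guard cells with ABA and at 8.15 to 10.41 (median 9.60) with EtOH, against at 13.30 to 13.75 (median 13.52) in leaves with ABA and at 10.09 to 12.59 (median 11.52) with EtOH. ABA raised it in both kinds of sample without overlap, by 3.58 in guard cells and 2.11 in leaves, a difference of 1.47 (SE 0.37, adjusted p = 0.00389). Leaves had the higher median with EtOH and with ABA lay nearer to 14.50, the highest value on any array. A larger rise in leaves may therefore not have been measurable. AT3G02480 rose by 7.64 in guard cells and by 6.12 in leaves, a difference of 1.52, which was 0.94 and not called with gpa1 left out. ALDH7B4, an aldehyde dehydrogenase, rose in leaves (1.20) with a guard cell response of -0.01, a difference of -1.21 (SE 0.28, adjusted p = 0.00177), not called without gpa1 (adjusted p = 0.0565). COR47, LTI30, COR15B and HIS1-3 rose in both, and their differences between -0.76 and 0.14 were not called.

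The LEA genes, which overlap with that list, included some of the larger rises of guard cells over leaves. This list was matched by gene name, so LEA genes without such a name in the tables used were not counted. The unnamed loci above, such as AT3G17520, AT3G15670 and AT4G36600, are not in it. Among 9 matched by name, 7 rose in guard cells and 6 in leaves, against 14.4% and 13.7% of all probe sets. The difference was called higher for 4 and lower for none, against 12.1% of all probe sets in each direction. AtLEA4-1 lay at 8.23 to 10.48 (median 8.92) in guard cells with ABA and at 3.44 to 3.81 (median 3.63) with EtOH, against at 4.09 to 6.12 (median 4.86) in leaves with ABA and at 3.10 to 3.58 (median 3.42) with EtOH. Both kinds of sample started near the same level, and ABA raised guard cells by 5.48 and leaves by 1.64, a difference of 3.85 (SE 0.36, adjusted p = 4.42e-09). LEA18 rose by 5.48 in guard cells and 2.66 in leaves, a difference of 2.81 (SE 0.40, adjusted p = 3.81e-06). LEA26 (AT2G44060) rose in guard cells by 1.57, with a leaf response of 0.08 that was not called (difference 1.49). LEA4-5 rose in both by 4.32 and 3.59, and its difference of 0.72 was not called without any 1 of 10 arrays, without gpa1 or without agb1 gpa1. Over all single omissions it was 0.63 to 0.86.

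Of genes for ABA itself, UGT71B6, a glucosyltransferase that conjugates ABA, rose by 1.62 in guard cells and 0.71 in leaves, a difference of 0.91 (SE 0.22, adjusted p = 0.0026), a call lost without gpa1 (adjusted p = 0.0870). DTX50 (AT5G52050), an efflux carrier that exports ABA, lay at 7.15 to 9.61 (median 8.17) in guard cells with ABA and at 6.69 to 10.09 (median 8.39) with EtOH, against at 8.48 to 9.25 (median 8.75) in leaves with ABA and at 6.59 to 7.30 (median 6.90) with EtOH. Its leaf arrays separated by treatment and its guard cell arrays did not, and the difference was -1.83 (SE 0.37, adjusted p = 3.85e-04). PRN, a pirin that binds the G protein alpha subunit, was the 1 measured member of the 16 listed partners. It rose by 2.70 in guard cells and 1.32 in leaves, a difference of 1.38 (SE 0.25, adjusted p = 1.17e-04).

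Of 5 measured genes of the stomatal lineage and of guard cell function, ABA lowered 3 in guard cells and 3 in leaves, against 19.9% and 20.2% of all probe sets. The difference was called lower for 3 (12.1% of all probe sets) and higher for none, with a median of -0.40. FMA (FAMA), the transcription factor that completes guard cell formation, lay at 8.10 to 9.05 (median 8.47) in guard cells with ABA and at 10.63 to 11.66 (median 10.92) with EtOH, against at 4.29 to 5.11 (median 4.81) in leaves with ABA and at 4.75 to 5.86 (median 5.20) with EtOH. ABA and EtOH did not overlap in guard cells and did in leaves, and the responses were -2.47 and -0.41, a difference of -2.06 (SE 0.20, adjusted p = 4.97e-09). The leaf fall was not called with centred or quantile-normalized arrays. BLUS1 (AT4G14480), a kinase of blue light signalling in guard cells, fell by 2.78 in guard cells and by 0.68 in leaves on the log2 scale, a difference of -2.11 (SE 0.20, adjusted p = 4.43e-09). SPCH, which starts the lineage, had a difference of -0.40, not called without any 1 of 13 arrays, without agb1 or without agb1 gpa1, and MUTE one of 0.11 that was not called. The summed linear level of the stomatal markers had a median of 13971 in guard cells with ABA and 18797 in guard cells with EtOH, with overlapping ranges, and 781.1 in leaves with ABA and 1347 in leaves with EtOH, and its part in these differences was not tested. In such bulk samples fewer cells of a type and less RNA per cell cannot be told apart.

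Genes that loosen or build the cell wall, on which the guard cell's change of shape and the growth of leaves depend, moved in both directions. Expansins loosen the wall, and of 19 measured the difference was called higher for 5 and lower for 2 (median 0.11), against 12.1% of all probe sets in each direction. EXLA2 lay at 11.00 to 12.33 (median 11.61) in guard cells with ABA and at 6.37 to 8.20 (median 7.53) with EtOH, against at 7.67 to 9.88 (median 8.10) in leaves with ABA and at 6.87 to 9.22 (median 7.47) with EtOH. Guard cells with ABA stood above all other arrays, and the difference was 3.63 (SE 0.38, adjusted p = 2.61e-08). EXPA4 followed it, with a guard cell response of 3.65, a leaf response of 0.33 that was not called and a difference of 3.32. EXPA9 fell in leaves (-1.76) with a guard cell response of -0.11, and its guard cell arrays lay below 4 on the log2 scale under either treatment.

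EXPA16 had the opposite form. It lay at 13.71 to 14.12 (median 13.92) in guard cells with ABA and at 12.63 to 13.17 (median 12.97) with EtOH, against at 9.85 to 10.51 (median 10.25) in leaves with ABA and at 4.33 to 5.16 (median 4.59) with EtOH. ABA raised it without overlap in both, by 1.0 in guard cells, where it was already high with EtOH, and by 5.57 in leaves, a fitted difference of -4.57 (SE 0.14, adjusted p = 2.96e-19). With ABA the guard cell arrays lay close to 14.50, the highest value on any array, so a larger rise in guard cells may not have been measurable. EXLB1 was the other expansin with a lower difference (-0.90) and is named after its value was seen.

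Xyloglucan hydrolases (XTH) cut and rejoin wall polymers, and of 9 measured the difference was called higher for 2 and lower for 4. Over all probe sets 12.1% were called in each direction. XTH16 lay at 5.33 to 7.05 (median 6.79) in guard cells with ABA and at 8.61 to 9.78 (median 9.04) with EtOH, against at 5.22 to 8.39 (median 6.77) in leaves with ABA and at 6.02 to 8.84 (median 6.51) with EtOH. It fell in guard cells without overlap and its leaf response of -0.24 was not called, a difference of -2.39 (SE 0.44, adjusted p = 1.31e-04). XTH19 rose more in leaves (3.11) than in guard cells (1.04), and XTH33 fell in leaves (-1.73) with a guard cell response of 0.13. Their differences were -2.07 and 1.86, and that of XTH18 was -1.28, a call lost without agb1 or without gpa1. The glycosyl hydrolases of family 9, GH9B8 and GH9C2, from the family of plant cellulases, had higher differences of 2.37 and 2.10. Tubulins, the subunits of microtubules, had 4 higher differences among 7 measured and none lower (median 0.72), against 12.1% of all probe sets in each direction. TUA6 rose in guard cells (1.21) with a leaf response of 0.13, whereas TUB5 fell in leaves (-1.48) with a guard cell response of -0.53. The calls of TUB5 and TUB7 were lost without gpa1, that of TUB5 also without agb1 gpa1 and that of TUB7 also without agb1. TUB6 (0.72) lost its call without any 1 of the mutants or any 1 of 7 arrays.

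**Figure D3:**
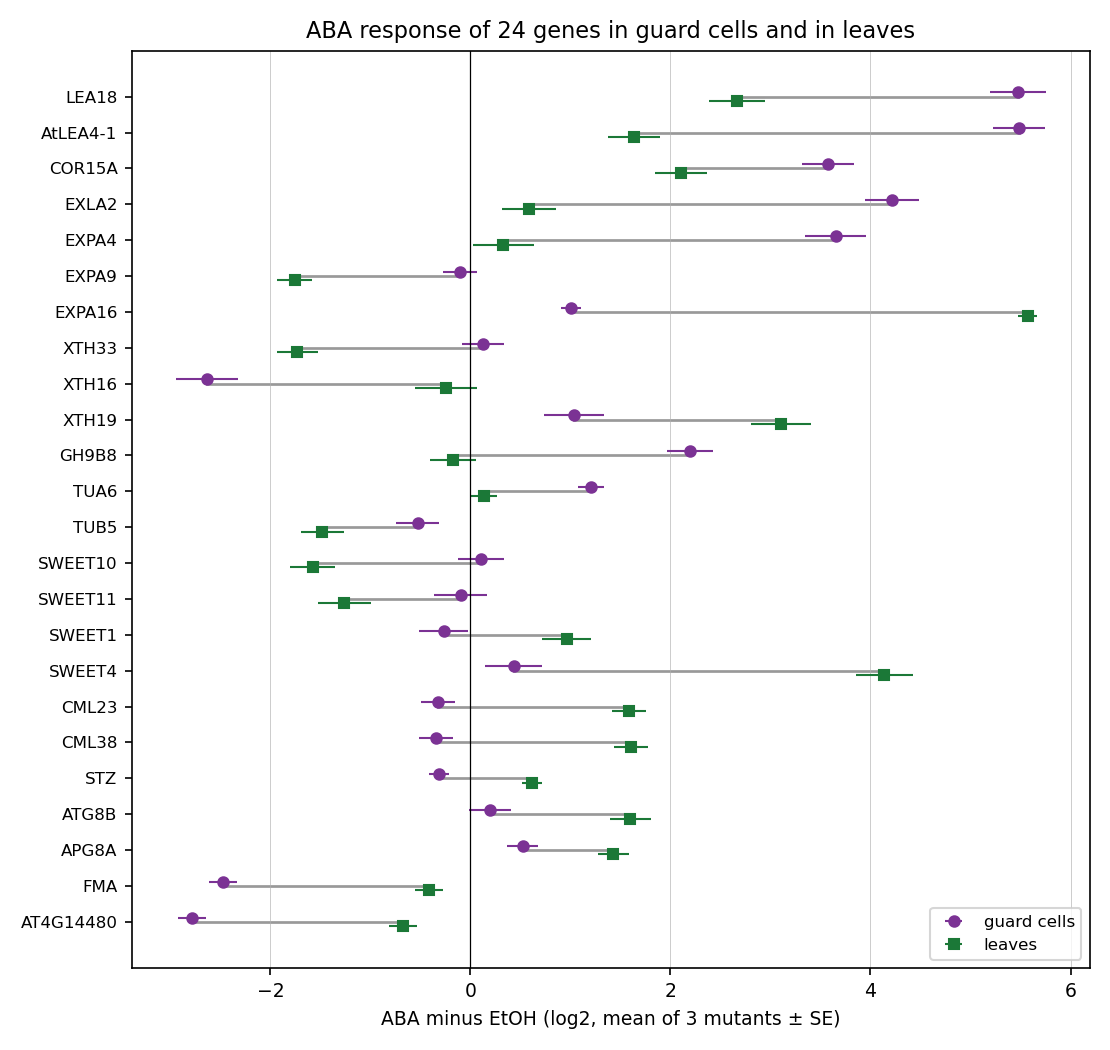
ABA response (ABA minus EtOH, log2, mean of 3 mutants ± SE) of 24 genes in guard cells (purple circles) and leaves (green squares), joined by a line whose length is the difference. LEA genes and EXLA2 extend to the right in guard cells, EXPA16 and SWEET4 in leaves, and FMA and XTH16 to the left in guard cells.

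Sugar transporters of the SWEET family carry sugars down their gradient across membranes. Of 16 measured, the difference was called higher for 2 and lower for 3, against 12.1% of all probe sets in each direction. With quantile-normalized arrays 5 were lower. SWEET4 lay at 3.87 to 5.45 (median 4.10) in guard cells with ABA and at 3.59 to 4.07 (median 3.85) with EtOH, against at 7.69 to 10.06 (median 8.52) in leaves with ABA and at 3.85 to 6.34 (median 4.25) with EtOH. ABA raised it in leaves without overlap, the guard cell groups overlapped, and the difference was -3.71 (SE 0.40, adjusted p = 5.10e-08). SWEET1 (-1.23) and SAG29 (-1.0, named after its value was seen) also had lower differences. SWEET11, which loads sucrose into the phloem, fell in leaves by 1.26 on the log2 scale and had levels in guard cells below those of all leaf arrays with EtOH, with a difference of 1.16 (SE 0.38, adjusted p = 0.0235). SWEET10 fell in leaves likewise (difference 1.68). The call of SWEET11 was lost without gpa1 (adjusted p = 0.262), and that of SWEET1 without agb1 or without agb1 gpa1.

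Other transporters differed too. TMT2, a sugar transporter of the vacuole membrane, rose more in guard cells (1.47) than in leaves (0.64), as did MTP11, a manganese transporter (3.09 and 0.90). The differences were 0.83 (SE 0.22, adjusted p = 0.0053) and 2.19 (SE 0.15, adjusted p = 1.09e-11). SFP1, a sugar porter by its name, rose in leaves (2.24) and fell in guard cells (-0.54), a difference of -2.78. Of 7 glutamate receptor channels 2 had higher differences, led by GLR3.5 (0.67), and of 7 cation/H+ exchangers 1, CHX16 (1.42), which fell in leaves. Over all probe sets 12.1% had a higher difference. With centred arrays only 1 glutamate receptor was called.

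Several calcium sensors rose in leaves with ABA, with no call in guard cells. Of 5 measured genes of the touch list 3 had lower differences, and so had 3 of 8 calmodulin-like genes, which bind calcium. Over all probe sets 12.1% had a lower difference. The lists overlap, with CML23 and CML38 among the shared genes, so their counts are not independent. The highest guard cell response, 1.03, is the same in both. In leaves 4 genes of each list rose, against 13.7% of all probe sets, and in guard cells 1 of each. In leaves 1 touch gene and 2 calmodulin-like genes fell. The highest differences were 0.71 in the touch list and 0.94 in the calmodulin-like list, neither called. CML38 lay at 11.21 to 12.20 (median 11.93) in guard cells with ABA and at 11.61 to 12.58 (median 12.12) with EtOH, against at 9.56 to 11.01 (median 10.44) in leaves with ABA and at 7.61 to 9.50 (median 8.74) with EtOH. Leaf arrays separated by treatment, while those of guard cells overlapped at a higher level. The difference was -1.95 (SE 0.24, adjusted p = 4.21e-07). CML23 (-1.91) and CML39 (AT1G76640, -1.35) also rose in leaves. STZ, a zinc finger repressor induced by many stresses, rose in leaves (0.62) and fell slightly in guard cells (-0.31), a difference of -0.93 (SE 0.14, adjusted p = 1.29e-05); its guard cell fall was not called with centred arrays.

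Regulators of protein stability and transcription moved in several ways. PUB19, a U-box ubiquitin ligase that acts against ABA and drought responses, lay at 12.63 to 13.06 (median 12.91) in guard cells with ABA and at 9.92 to 10.93 (median 10.52) with EtOH, against at 10.20 to 11.33 (median 10.57) in leaves with ABA and at 4.22 to 5.27 (median 4.42) with EtOH. It rose in both without overlap, by 2.48 in guard cells and by 6.20 in leaves, a difference of -3.72 (SE 0.21, adjusted p = 2.18e-13). Leaves with ABA overlapped in level with guard cells with EtOH. PUB25 had a lower difference (-1.70) and PUB22, its relative, a higher one (0.66), a call lost without agb1 gpa1, among 9 U-box genes measured. WRKY6 (-1.71), a stress transcription factor, GRX480 (-2.72), a glutaredoxin, and RR16 (-1.72), a cytokinin response regulator, rose in leaves by 1.39, 2.21 and 2.16, with guard cell responses that were not called. With quantile-normalized arrays the guard cell responses of WRKY6 and GRX480 were called. WRKY6 was the 1 call of 6 WRKY factors, of which ABA lowered 4 in leaves and whose median difference was 0.18, and RR16 was the 1 call of 6 response regulators (median -0.04). Of 20 bZIP transcription factors 5 had lower differences and none a higher one. For this and the other lists of this paragraph, the share of all probe sets called was 12.1% in each direction. bZIP29 (AT4G38900, -1.45) and bZIP52 (-1.42) fell in guard cells with leaf responses of 0.04 and -0.19.

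**Figure D4:**
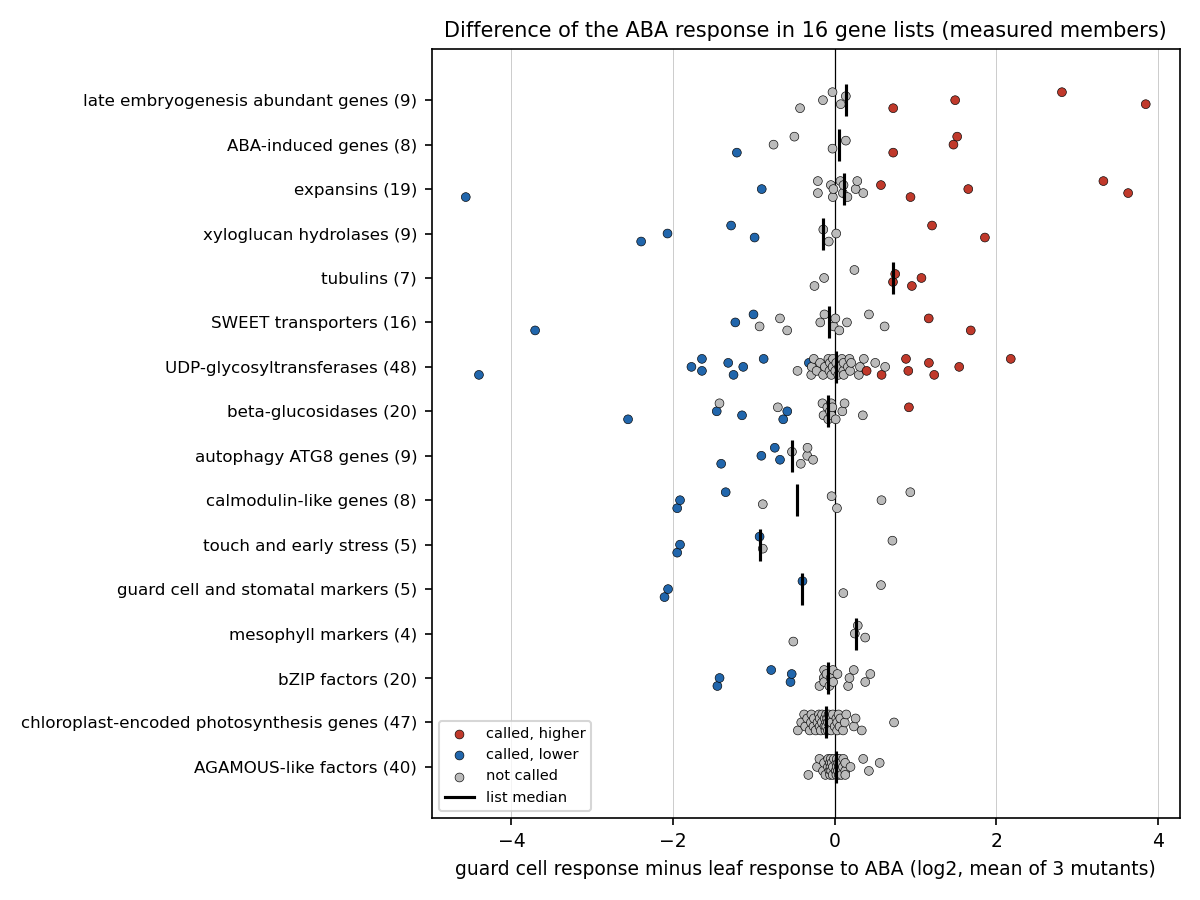
Guard cell response minus leaf response (log2, mean of 3 mutants) of the measured members of 16 gene lists, whose number stands in brackets; red and blue points were called higher and lower, grey points not, and the black bar is the list median. All 9 ATG8 genes lie left of 0 and the 47 chloroplast-encoded photosynthesis genes hold no call, while expansins and UDP-glycosyltransferases spread to both sides.

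The ATG8 genes, whose products attach to the membranes that enclose cargo in autophagy, had lower differences in 4 of 9 members, and all 9 values were below 0, between -1.41 and -0.27 (median -0.53). In leaves 7 rose and none fell, and in guard cells 2 rose and 1 fell. Over all probe sets 12.1% had a lower difference, and ABA raised 13.7% in leaves and 14.4% in guard cells. ATG8B lay at 8.78 to 9.88 (median 9.39) in guard cells with ABA and at 8.87 to 9.63 (median 9.21) with EtOH, against at 7.81 to 9.33 (median 8.54) in leaves with ABA and at 6.42 to 7.58 (median 7.13) with EtOH. The leaf groups were separate and the guard cell groups overlapped, and the difference was -1.41 (SE 0.29, adjusted p = 6.24e-04). APG8A rose by 0.52 in guard cells and 1.43 in leaves, and ATG8F fell in guard cells (-0.62) with a leaf response of 0.12. Their differences were -0.91 and -0.74, and that of ATG8D, whose call was lost without agb1 or without gpa1, was -0.68.

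Enzymes that attach or remove sugars had calls in both directions, as had all probe sets (12.1% each way). Of 48 UDP-glycosyltransferases, which add sugars to hormones and defence compounds, 8 had higher and 9 lower differences (median 0.01). UGT76E12 lay at 3.81 to 4.57 (median 4.21) in guard cells with ABA and at 3.45 to 4.08 (median 3.68) with EtOH, against at 7.98 to 9.86 (median 9.48) in leaves with ABA and at 3.86 to 5.21 (median 4.40) with EtOH. It rose in leaves (4.89) without overlap and slightly in guard cells (0.48), where the groups overlapped, and the difference was -4.40 (SE 0.26, adjusted p = 6.82e-13). The guard cell rise was not called with quantile-normalized arrays. UGT85A4 fell in leaves (-2.27) with a guard cell response of -0.09 (difference 2.18), whereas UGT85A5 (-1.77) and UGT85A3 (-1.64) rose there. UGT78D2, which glycosylates flavonoids, rose more in guard cells (difference 0.88). Of 20 beta-glucosidases 5 had lower differences and 1 a higher one, and BGLU16 fell in guard cells (-1.32) and rose in leaves (1.23).

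Further named genes with large differences, added after their values were seen, came from several pathways. CRT1b, a calreticulin that holds calcium and folds proteins in the endoplasmic reticulum, rose in guard cells (2.53) with a leaf response of -0.66, a difference of 3.20 (SE 0.37, adjusted p = 1.72e-07). AUR2, an aurora kinase of cell division (2.32), and TET2, a tetraspanin of the cell membrane (2.41), rose in guard cells with no call in leaves. PRX52 (-2.82), a peroxidase, BSMT1 (-2.92), which methylates salicylic and benzoic acid, STR18 (-3.22), a sulfurtransferase, and AtS40-3 (-3.13) rose in leaves by 3.29, 2.91, 3.37 and 3.52. CCL fell in guard cells (-2.11) and rose in leaves (0.57).

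Genes of photosynthesis and the organelles are read against the 24.2% of all probe sets with a called difference. None of 47 chloroplast-encoded photosynthesis genes had a called difference (median -0.11), nor did the 3 measured genes of the Calvin cycle (median 0.29) or the 3 of chlorophyll synthesis (median 0.23). The chlorophyll genes fell in both kinds of sample, and the Calvin cycle genes all in leaves and 1 in guard cells. Of 7 nuclear genes of the photosystems and electron transport 2 had lower differences, PGRL1B (-1.02), a protein of cyclic electron flow, and PSAN (-0.97), a photosystem I subunit whose call was lost without any 1 of the 3 mutants. Among 19 chloroplast-encoded ribosome and polymerase genes rps14 had a lower difference (-1.04), and among 15 mitochondrion-encoded genes nad7 had a higher one (0.49). The call of rps14 was lost without agb1 gpa1 and that of nad7 without gpa1. Of 5 CRR genes 2 had higher differences. CRR21, needed for the chloroplast NDH complex, rose in guard cells (1.70) with a leaf response of -0.01, a difference of 1.70 (SE 0.22, adjusted p = 8.68e-07). Lists without any call were the 40 AGAMOUS-like factors (median 0.02), the 13 defensins (0.07) and the 8 OTP genes of organelle RNA editing (-0.05).

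In other lists, to be read against 12.1% of all probe sets called in each direction, higher and lower differences numbered 4 and 2 of 23 trichome birefringence-like genes, 3 and 4 of 23 cytochromes P450, 2 and 5 of 22 VPS and SEC genes of vesicle traffic, 1 and 3 of 17 RALF and CLE peptides, and 2 and 4 of 29 serine carboxypeptidases. Among the peptides CLE44 (-1.21) rose in leaves and RALFL33 (-1.15) fell in guard cells. GH3.17 (-0.64) was the 1 call, lower, of 12 auxin IAA and GH3 genes, and GSTU16 (-0.65) that of 13 glutathione S-transferases; both lost it without gpa1, and GSTU16 also without agb1. In further lists, higher and lower calls numbered 1 and 2 of 8 aldehyde dehydrogenases and of 6 nuclear genes of mitochondrial respiration. They numbered 1 and 1 of 15 tetraspanins, of 12 ubiquitin-conjugating enzymes and of 12 ubiquitin-specific proteases, and 1 and 0 of 15 IQ-domain genes and of 9 PRA1 genes. Lower calls alone were seen for 2 of 7 subtilases, 2 of 6 RNA polymerase II subunits and 1 of 6 LSM genes. Higher calls alone were seen for 1 of 5 genes of branched-chain amino acid breakdown, 1 of 4 of the dark and starvation response and 1 of 4 of flavonoid synthesis. In the first 2 of these the call was that of MCCA (1.42), lost with centred arrays. Of 22 listed genes of guard cell ion transport 2 were measured, 1 called lower. Of 15 of ABA synthesis and breakdown 2 were measured, 1 called higher. The clock gene GI (0.42) and the glucosinolate gene BCAT4 (-0.10), each the 1 measured member of its list, were not called. BCAT4 is also counted, by its name, among the 5 genes of branched-chain amino acid breakdown.

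The difference was then taken in each mutant alone, from 12 arrays with the spread of all 36. In agb1 it was called at 1539 probe sets (6.77%), 758 higher and 781 lower. In gpa1 it was called at 1895 (8.33%), 958 higher and 937 lower, and in agb1 gpa1 at 1396 (6.14%), 677 higher and 719 lower. With ABA and EtOH arrays paired by number, as a replicate block within genotype and sample type, the counts were 2922 in agb1, 3207 in gpa1 and 2684 in agb1 gpa1, and what follows rests on the fit without the block. In each of the 3 mutants 943 probe sets were called, all in 1 direction throughout, 458 higher and 485 lower. Calls in the same direction in agb1 and gpa1 made up 75.3% of those of agb1 and 61.2% of those of gpa1. For agb1 and agb1 gpa1 the shares were 69.2% and 76.3%, and for gpa1 and agb1 gpa1 57.7% and 78.4%. The mutants share no array, and the differences correlated across probe sets at 0.88 (agb1 and gpa1), 0.90 (agb1 and agb1 gpa1) and 0.88 (gpa1 and agb1 gpa1), as descriptions.

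No probe set passed the limma test between the 3 mutants at an adjusted p under 0.05 (0%), and 174 (0.765%) had an unadjusted p under 0.05. The pairwise tests called none either. Such probe sets numbered 260 (1.14%) for gpa1 minus agb1, 214 (0.941%) for agb1 gpa1 minus agb1 and 284 (1.25%) for agb1 gpa1 minus gpa1. Without any true difference a share near 0.05 of probe sets is due in such a test. These shares lie under it, so the p-values of these tests ran high, for a reason that was not tested. The lack of calls does not show that the mutants responded alike. Among genes the smallest p was that of AT3G14360 (unadjusted p = 0.00132, adjusted p = 1, limma), whose difference was -1.71 in agb1, -0.60 in gpa1 and -0.83 in agb1 gpa1. For AT3G55700 the values were 0.53, 1.43 and 0.14. NRT2.5, a nitrate transporter, had 0.10, 1.33 and 0.10, and AT1G32590 had -0.19, 0.66 and 0.12. In the last 3 gpa1 had the highest value. GTR1, not chosen by that test, ranged from -4.33 in gpa1 to -2.62 in agb1.

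**Figure D5:**
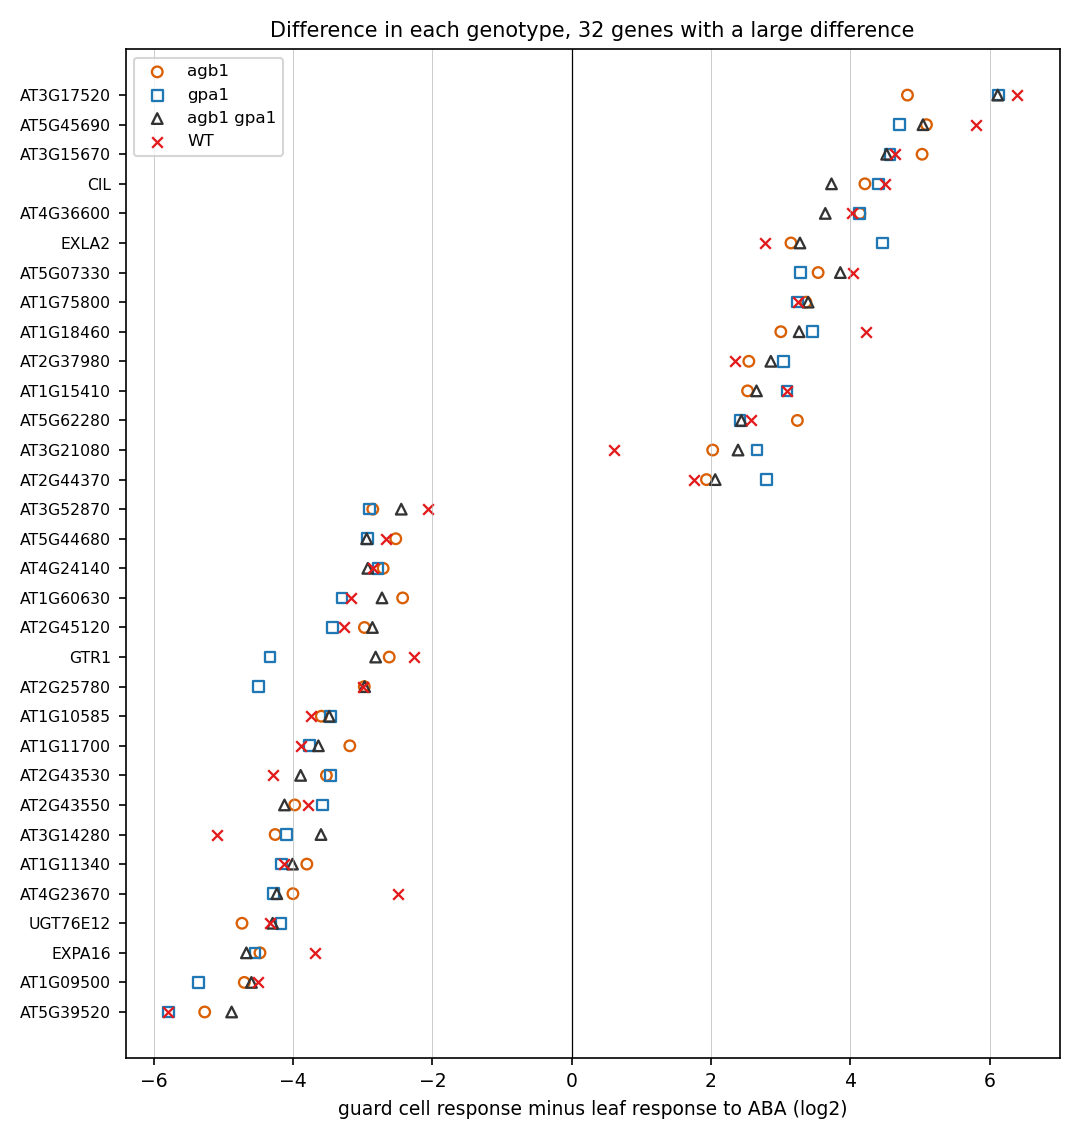
Guard cell response minus leaf response to ABA (log2, x axis) of 32 genes, 4 for each of 8 patterns of response, in agb1 (circles), gpa1 (squares), agb1 gpa1 (triangles) and WT (crosses). Within each gene the 3 mutants have the same sign, as the choice of genes required, and WT has that sign too, with AT3G21080 (0.61) nearest to 0.

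In WT, which served as the comparison, the difference was called at 5233 probe sets (23%), 2803 higher and 2430 lower. Calls in the same direction in mutants and WT numbered 3120, which was 56.7% of those of the mutants and 59.6% of those of WT, and 3 calls were opposite. Of the 5503 called in the mutants, 5208 (94.6%) had the same sign in WT. The difference correlated between mutants and WT at 0.80 across probe sets. Its SD over probe sets was 0.64 in the mutant mean of 36 arrays and 0.91 in WT, from 12. Each single mutant, also from 12 arrays, had an SD of 0.66 (agb1), 0.69 (gpa1) or 0.64 (agb1 gpa1). At that array number the difference was called at 1539, 1895 and 1396 probe sets in the same order, against 5233 in WT. Leaf responses were called at 4162, 3019 and 3021, against 9179 in WT. Guard cell responses were called at 3282, 4211 and 3416, against 4152. WT calls used the spread of 48 arrays, those of the mutants that of 36. The reason was not tested. No probe set passed the test of mutants minus WT (0%), while 3037 (13.4%) had an unadjusted p under 0.05. Omitting single arrays gave between 0 and 31 calls, the most without agb1 leaves ABA replicate 3, so the count of 0 is not stable.

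The 4 genes with the smallest p in that comparison did not pass it and are given as values. BZIP60, a transcription factor of the unfolded protein response, had a leaf response of 0.51 in the mutants and 1.86 in WT, and a guard cell response of 0.41 in the mutants and 0.19 in WT. The difference was -0.10 in the mutants and -1.67 in WT, a gap of 1.57 (95% interval 0.95 to 2.19, adjusted p = 0.0543, limma). For AT1G65510 the leaf response was 0.87 in the mutants and 2.01 in WT (gap 1.21, adjusted p = 0.0702), and for AT1G28070 0.18 and 1.66 (gap 1.74, adjusted p = 0.079). AT4G15975 had a guard cell response of -1.27 in the mutants and -2.60 in WT (gap 1.71, adjusted p = 0.0814). In WT leaves the arrays with EtOH had medians of 5.32 to 5.38, against 5.15 to 5.34 in mutant leaves with EtOH, and their part in these gaps was not tested.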

How the data were processed

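Gene expression was measured on 48 Affymetrix arrays, 3 per group in 16 groups, of which the 36 mutant arrays carry the results. The deposited values are log2 expression values that the authors made with RMA (affy), per the submitters' processing notes. The software versions, and whether all arrays were normalized together, are not given in the sources used here. Array values have no read depth, so the number of arrays limits the precision. The labels call the replicates independent biological samples.

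No further normalization was applied, and control probe sets were left out. One linear model with a mean for each of 12 mutant groups (16 with WT) was fitted with limma 3.58.1 in R 4.3.3, with moderated tests (eBayes), Benjamini-Hochberg adjustment over 22746 probe sets and 24 residual degrees of freedom among the mutants. Of the probe sets, 13513 were tied to 1 gene, 503 to several and 8730 to none in the annotation given, and only those of 1 gene were named. The fit was first tested on simulated data.

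The mutants, gene lists and members were chosen with earlier results of these data known. Genes were named by rule, using for each gene the probe set with the highest mean. The rule took the 4 largest differences in each of 8 patterns of response, provided all 3 mutants had the same sign, up to 4 called members of each list or the single measured member of a list, and the 4 smallest p-values of each test between genotypes. The 12 highest and 12 lowest differences among genes with a symbol, EXLB1, SAG29 and list members that were not called were added after their values were seen. Alternatives were median centring, quantile normalization, a minimum mean of 5, other eBayes settings, the replicate number as a block, and the omission of arrays or of a mutant. Array weights were added after seeing the data. Same-numbered ABA and EtOH samples deviated together, at a correlation over 0.1, in 9 of 9 guard cell pairs (0.20 to 0.64). In leaves 6 of 9 pairs did (-0.28 to 0.66), including all 3 of agb1, the lowest of the 6 at 0.10. The best match had the same number for 9 of 9 ABA samples of guard cells and 5 of 9 of leaves. Since not every pair deviated together, the main fit has no block, and the pairing seen in guard cells is not used in it.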

Additional observations from a re-analysis of the deposited data

Results flagged for a closer look

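The ABA response in guard cells and that in leaves are effects of the same contrast in 2 kinds of sample, and the difference between them was tested itself. It was called by limma at 5503 probe sets in the mean of the 3 mutants, at 1539 in agb1, at 1895 in gpa1 and at 1396 in agb1 gpa1.

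Among genes whose 2 responses were called in opposite directions, the 4 largest differences each way are listed here. Other named genes, such as STZ, also moved in opposite directions and are not repeated. CIL (4.11), AT1G75800 (3.33), AT1G18460 (3.24) and AT2G37980 (2.81) rose in guard cells and fell in leaves, with the guard cell response minus the leaf response in brackets. AT2G43550 (-3.90), AT2G43530 (-3.63), AT1G10585 (-3.51) and GTR1 (-3.26) fell in guard cells and rose in leaves.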

How the results depend on the processing

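Without gpa1 the mean difference was called at 3325 probe sets, of which 3303 were among the 5503. With only the 12 arrays of agb1 in the fit, 956 were called there. The replicate number as a fixed block gave 5615 calls of the mean difference and 5 for mutants minus WT. A replicate block within genotype and sample type gave 7081 calls of the mean difference, against 5503 without it. In the single mutants it gave 2922 in agb1, 3207 in gpa1 and 2684 in agb1 gpa1, against 1539, 1895 and 1396. Mutants minus WT was not fitted with that block. Same-numbered samples deviated together in every agb1 pair, and not in every leaf pair of gpa1 or agb1 gpa1. Mutants minus WT, with 0 calls, gave 5 with centred arrays, 10 with quantile normalization, 3 with trended and robust eBayes, and 4 with array weights, a setting chosen after seeing the data.

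Leaving out 1 array at a time gave 5164 to 5839 calls for the mean difference, 7264 to 8007 for guard cells, 7072 to 8165 for leaves, 1163 to 2052 in agb1, 1470 to 2035 in gpa1, 1068 to 1611 in agb1 gpa1, 0 between mutants and 0 to 31 for mutants minus WT. The last count was 31 without agb1 leaves ABA replicate 3, 23 without gpa1 leaves EtOH replicate 3 and 19 without WT leaves EtOH replicate 2. Of 152 named genes with a called difference, 96 kept the call in every alternative, 14 lost it on leaving out 1 array and 41 only on leaving out a mutant. None of these 152 reversed. Among genes that were not called, BCAT4 was 0.195 without agb1 and AT1G32590 -0.034 without gpa1. AT1G28070 was 0.17 without agb1 gpa1. Single omissions gave -0.308 to 0.253 for BCAT4 and -0.105 to 0.0586 for AT1G28070, with turned signs between. Centring moved the median of all probe sets to 0.15 for mutants minus WT. The causes were not tested.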
